A study of Mus musculus with 16 samples.

Results

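Expression of 32 genes of cholesterol and fatty acid synthesis was followed in primary mouse lung fibroblasts after siRNAs against lysyl oxidases, the secreted enzymes that cross-link collagen and elastin. The members were chosen as the genes named in a fixed list of these pathways. All 32 were found by symbol among the 34763 gene symbols on the array, with 48 probes, and all 32 were among the 22649 genes that were detected, that is, whose signal exceeded the background clearly in every one of the 4 arrays of some group. They comprised 18 genes of cholesterol synthesis, 6 of sterol transport and regulation, and 8 of fatty acid synthesis, and held no receptor for sterol uptake. The cells had gone through 3 or more passages and were harvested at 48 hours, after a scrambled siRNA (scr) or 1 of 3 specific siRNAs, siLox against the gene Lox, siLoxL1 against Loxl1 and siLoxL2 against Loxl2. Each group held 4 arrays, and every group, scr included, had received an siRNA. The labels give no age, sex or strain of the mice and do not say whether the replicates were separate cultures, so that p-values measure only the spread between these samples.

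Mammalian cells build cholesterol from acetyl-CoA through mevalonate, the isoprenoid farnesyl diphosphate, squalene and a series of sterol intermediates. The transcription factor SREBP-2, made from Srebf2, drives most genes of this route, and SREBP-1, made from Srebf1, drives many genes of fatty acid synthesis and desaturation. Both are made as precursors held in the endoplasmic reticulum with the escort protein Scap, and the sterol-responsive retention proteins Insig1 and Insig2 keep them there when sterols are plentiful. Fibroblasts of the lung use these lipids for membranes and, in lipofibroblasts, for lipid stores that also serve the surfactant-making epithelium.

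The promoters show what several members share in sequence. The set of RefSeq promoters used (GRCm38.p6) held the 250 bases before a transcription start for 25 of the 32 members. Those of Fdps, Fdft1, Sqle, Stard4, Scd1, Scd2 and Fads1 were not analysed here. Some genes had more than 1 start, giving 33 windows, and a gene counted as a match when any of its windows matched. The 5 letters CCAAT, the core of the site bound by the factor NF-Y, were present on either strand in 19 of the 25 members (76.0%), against 37.5% of 27025 genes and 39.8% of the 12454 detected genes with a promoter. The GC box GGGCGG was present in 21 of 25 (84.0%), against 35.4% of all genes and 57.9% of detected genes. By window, CCAAT was present in 20 of 33 and the GC box in 24 of 33, against 33.8% and 32.7% of all windows. The sterol regulatory element, searched as TCACNCCAC on either strand, was present in 1 of 25 (4.0%; 1.22% of all genes), namely in Hmgcs1, 137 bases before the start. No motif contains another, although neighbouring matches can share bases, and a match is a description of letters only. The promoters below are those of 3 of the 6 genes of cholesterol synthesis that were lower in siLox than in scr. Of those not shown, Cyp51 held 1 match to CCAAT, Ebp 2, and Dhcr7 0, 0 and 2 in its windows. As a contrast, Acly is shown, a gene of fatty acid synthesis that was also lower. Its window held 0 matches to CCAAT and 4 to the GC box. Capitals mark TCACNCCAC and CCAAT on either strand, so that a CCAAT on the other strand reads ATTGG.
Hmgcs1 (chr13:119690101-119690350, plus strand): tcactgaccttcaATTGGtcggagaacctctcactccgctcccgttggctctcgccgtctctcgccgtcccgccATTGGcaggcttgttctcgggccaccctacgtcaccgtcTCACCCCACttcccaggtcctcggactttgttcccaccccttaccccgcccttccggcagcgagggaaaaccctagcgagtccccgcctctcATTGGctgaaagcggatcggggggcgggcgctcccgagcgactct
Nsdhl (chrX:72918271-72918520, plus strand): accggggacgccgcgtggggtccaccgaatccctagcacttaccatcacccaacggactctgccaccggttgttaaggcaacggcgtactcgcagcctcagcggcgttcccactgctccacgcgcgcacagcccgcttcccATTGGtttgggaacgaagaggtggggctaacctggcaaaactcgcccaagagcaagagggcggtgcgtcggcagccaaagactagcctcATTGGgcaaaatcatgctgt
Hsd17b7 (chr1:169969206-169969455, minus strand): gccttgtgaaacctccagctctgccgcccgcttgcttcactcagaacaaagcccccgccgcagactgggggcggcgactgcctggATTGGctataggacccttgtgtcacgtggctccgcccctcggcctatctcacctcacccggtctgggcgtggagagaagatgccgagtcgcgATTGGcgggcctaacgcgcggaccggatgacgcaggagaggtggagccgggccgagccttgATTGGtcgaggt
Acly (chr11:100528001-100528250, minus strand): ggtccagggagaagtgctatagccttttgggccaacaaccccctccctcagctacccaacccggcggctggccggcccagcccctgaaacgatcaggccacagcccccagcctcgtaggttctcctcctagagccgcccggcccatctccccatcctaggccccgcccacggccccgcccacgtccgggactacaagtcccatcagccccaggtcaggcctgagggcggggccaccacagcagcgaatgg
Hmgcs1 and Hsd17b7 each held 3 matches to CCAAT and Nsdhl held 2, all of them as ATTGG.

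RNA was measured on one-colour microarrays, and the precision is limited by the number of arrays. A level is the log2 signal of a gene's brightest probe relative to the 75th percentile of its array, so that a level of 0 equals that percentile and 1 unit is a doubling. The scr and siLox arrays lay on 1 slide and the siLoxL1 and siLoxL2 arrays on another, and the groups of a slide lay in different rows of it. The share of spots well above background was 49.2% to 52.3% on slide 1 and 60.4% to 63.1% on slide 2, and the median SD within groups was 0.163 and 0.0969. Lox itself was at 4.16, 4.08, 4.15 and 3.88 in scr and at 0.39, 0.89, 1.25 and 2.04 in siLox replicates 1 to 4, a difference of -2.92 ± 0.31 (SE, n = 4 per group). Loxl1 and Loxl2 were also lower in siLox than in scr, at -0.49 ± 0.13 and -0.71 ± 0.17 (adjusted p = 0.0347 and 0.0248). In siLoxL1 minus siLoxL2, Loxl1 differed by -1.15 ± 0.06 and Loxl2, the target of the second, by 0.30 ± 0.08 (adjusted p = 0.0551, not passed). Relative to scr on the other slide, Loxl1 was at -0.98 in siLoxL1 and 0.18 in siLoxL2, and Loxl2 at -0.76 and -1.06. The fibroblast markers Col1a1, Col1a2, Col3a1, Pdgfra, Pdgfrb, Dcn, Lum, Thy1 and Vim were all detected. Of the epithelial markers Epcam, Cdh1, Sftpc, Sftpb and Nkx2-1 were not detected, whereas Krt8, Krt18 and Krt19 were. Also detected were 10 of 11 leukocyte and macrophage markers, all 5 endothelial and all 3 mesothelial ones.

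**Figure D1:**
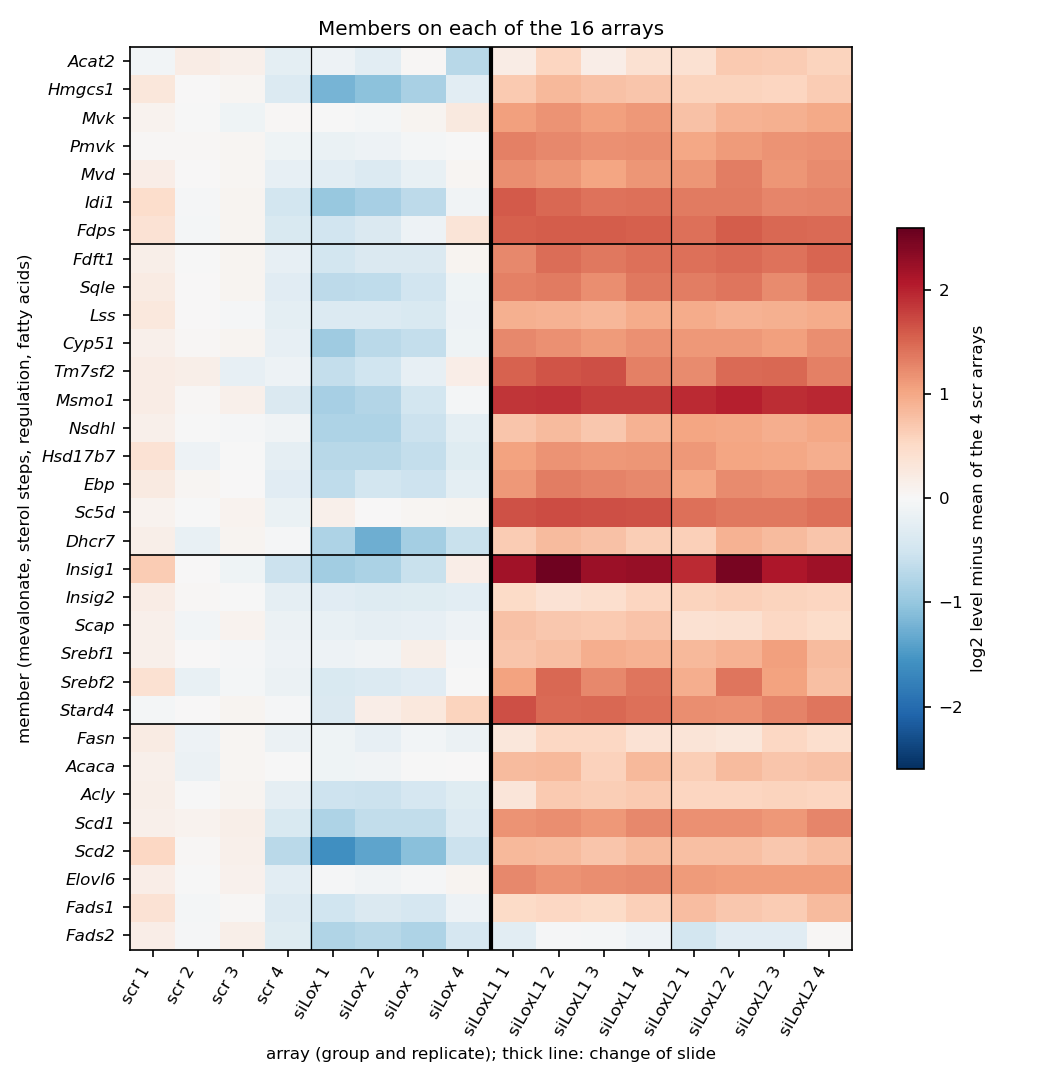
Heat map of the 32 members (lines, in the order of the pathways) on each of the 16 arrays (columns), coloured by the log2 level minus the mean of the 4 scr arrays. Most members are paler or blue on siLox replicates 1 to 3 and red on all 8 arrays of slide 2, with Insig1 the strongest red and Fads2 near the level of scr.

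Between siLox and scr, which share a slide, 11 of the 32 members were lower and 0 higher in siLox (34.4% lower), where 13.5% of all genes tested were lower and 11.5% higher. The 11 were Hmgcs1, Cyp51, Nsdhl, Hsd17b7, Ebp and Dhcr7 of cholesterol synthesis, the retention gene Insig2, and Acly, Scd1, Scd2 and Fads2 of fatty acid synthesis. Their differences ranged from -1.15 in Scd2 to -0.30 in Insig2 (log2). A difference was taken as passed at an adjusted p (limma, Benjamini-Hochberg over all 22649 genes) under 0.05. Over the 32 members the median difference was -0.30, against -0.05 over all genes. Of the 32, 29 were below 0, as were 12710 of all 22649 genes. In these bulk samples, fewer cells of a type and less RNA per cell cannot be told apart.

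The count moved with single libraries. It was 2 without siLox replicate 1, 2 or 3 or without scr replicate 3, 4 without scr replicate 2, and 5 without scr replicate 1. Without siLox replicate 4 it was 14, without scr replicate 4 it was 17, and without both it was 20, with 0 higher each time. The number of all genes that passed moved as well, from 5656 to between 1831 and 7830 without 1 array. In all 17 alternatives run for this comparison (other processing, another fit or arrays left out), each of the 11 kept its negative sign.

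**Figure D2:**
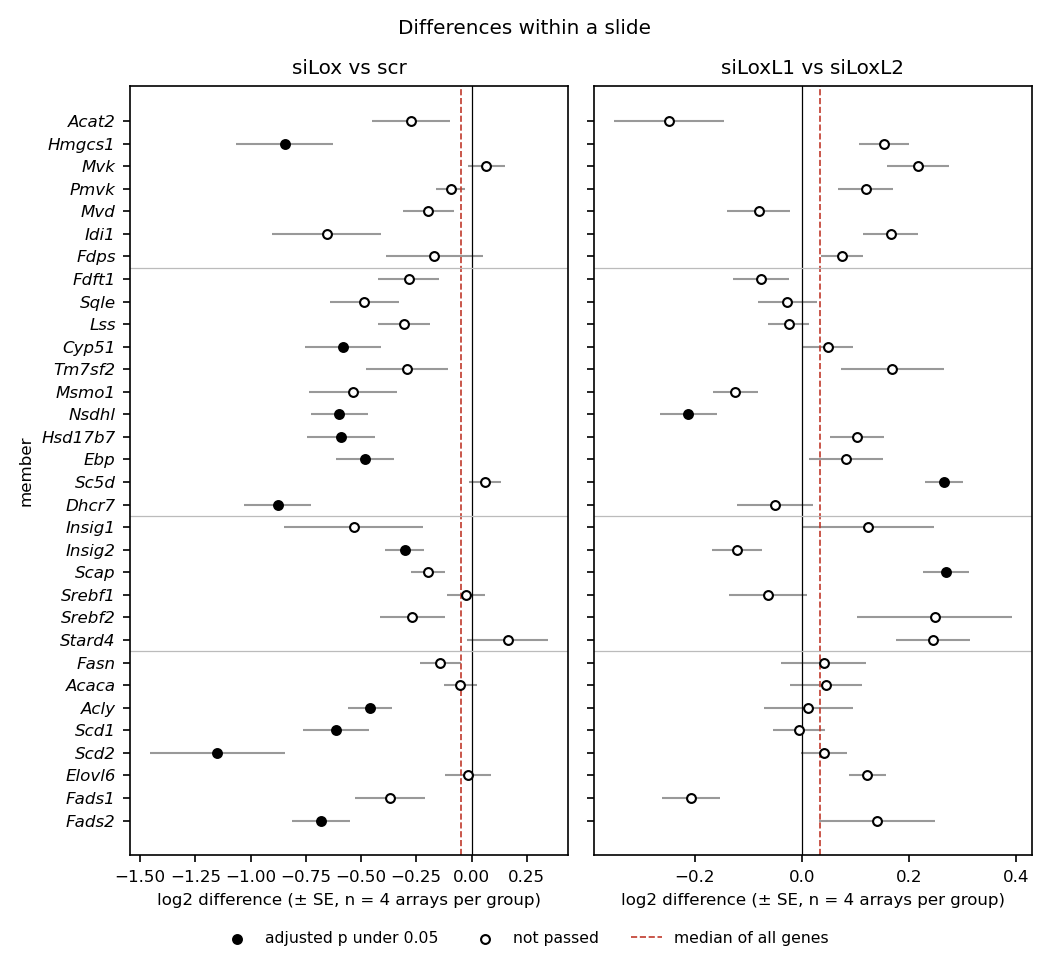
Log2 difference of each member (points, with SE, n = 4 arrays per group) for siLox vs scr on the left and siLoxL1 vs siLoxL2 on the right, on separate scales. Filled points passed an adjusted p of 0.05 and the dashed line is the median of all genes. In siLox 29 of 32 points lie below 0 (12710 of 22649 over all genes), whereas between siLoxL1 and siLoxL2 they lie on both sides.

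The enzymes of the mevalonate and isoprenoid steps were 1 of 7 lower in siLox (14.3%, near the 13.5% of all genes), with a median difference of -0.20. Hmgcs1, which condenses acetoacetyl-CoA with acetyl-CoA to the precursor of mevalonate, was at 3.99, 3.72, 3.76 and 3.35 in scr replicates 1 to 4. In siLox it was at 2.50, 2.64, 2.86 and 3.43, which gave a difference of -0.85 ± 0.22 (SE; adjusted p = 0.0313). The groups overlapped, because siLox replicate 4 lay above scr replicate 4. On slide 2 Hmgcs1 was higher, at 4.38 to 4.54 in siLoxL1 and 4.27 to 4.36 in siLoxL2. This probe lies on chromosome 13 sequence of mm9 that was not placed on the chromosome. A second probe was dim, above background on 6 of 16 arrays, with levels of only -6.68 to -6.38 throughout scr and siLox. It read 0.19 (adjusted p = 0.0659 among probes), so that the mean of both probes gave -0.33 and did not pass.

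The other 6 genes of these steps did not pass. Idi1, which isomerises the isoprenoid building block, had the most negative of these differences, at -0.66 ± 0.25 (adjusted p = 0.0861). Acat2, which joins 2 acetyl-CoA, was at -0.27, Mvd, the decarboxylase of the route, at -0.20, and Fdps, the farnesyl diphosphate synthase, at -0.17. The kinases of mevalonate and phosphomevalonate, Mvk and Pmvk, read 0.07 and -0.09.

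Of the 11 enzymes of the sterol steps, from squalene on, 5 were lower in siLox (45.5%) and 0 higher, with a median of -0.48. Over all genes 13.5% were lower and 11.5% higher. Dhcr7, a reductase at the end of the route to cholesterol, stood at -1.35, -1.70, -1.43 and -1.53 in scr. In siLox it was at -2.30, -2.77, -2.38 and -2.07, with no overlap and a difference of -0.88 ± 0.15 (adjusted p = 0.0114). It was one of the members whose call was most stable, passing in 16 of 17 alternatives. Its probe is on chromosome 7 from 151033874 to 151033933 (mm9), and its levels on slide 2 were -0.86 to -0.67 in siLoxL1 and -0.88 to -0.59 in siLoxL2.

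Nsdhl, which removes a carboxyl group with oxidation while the methyl groups of lanosterol are taken off, was at 0.25, 0.10, 0.10 and 0.04 in scr. Its siLox levels were -0.67, -0.68, -0.43 and -0.12, all below those of scr, and the difference was -0.60 ± 0.13 (adjusted p = 0.0201). A second Nsdhl probe gave -0.84. The probe that stands for the gene is on chromosome X from 70202803 to 70202862.

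Hsd17b7, the ketoreductase of the same demethylation, was at 1.11, 0.59, 0.71 and 0.49 in scr. It was at 0.00, 0.01, 0.11 and 0.42 in siLox, again with no overlap, although siLox replicate 4 came within a small step of scr replicate 4. The difference was -0.59 ± 0.15 (adjusted p = 0.0315), and the other probes of the gene read -0.52 and -0.31. The brightest probe lies on chromosome 1 from 171880203 to 171880262.

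Cyp51, the lanosterol demethylase, and Ebp, the sterol isomerase, were also lower, at -0.58 ± 0.17 and -0.48 ± 0.13 (adjusted p = 0.0439 and 0.0365). Both overlapped between the groups through replicate 4. Sqle, the squalene epoxidase, at -0.48, Msmo1, the methylsterol oxidase, at -0.54, and Lss, which closes the sterol rings, at -0.31 did not pass (adjusted p = 0.0584, 0.0833 and 0.0906). Nor did the squalene synthase Fdft1 at -0.28 and the sterol reductase Tm7sf2 at -0.29. Sc5d, the desaturase just before Dhcr7, was the one gene of the sterol steps above 0, at 0.06 ± 0.07, with 3.13, 3.02, 3.13 and 2.87 in scr and 3.16, 3.04, 3.08 and 3.11 in siLox.

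**Figure D3:**
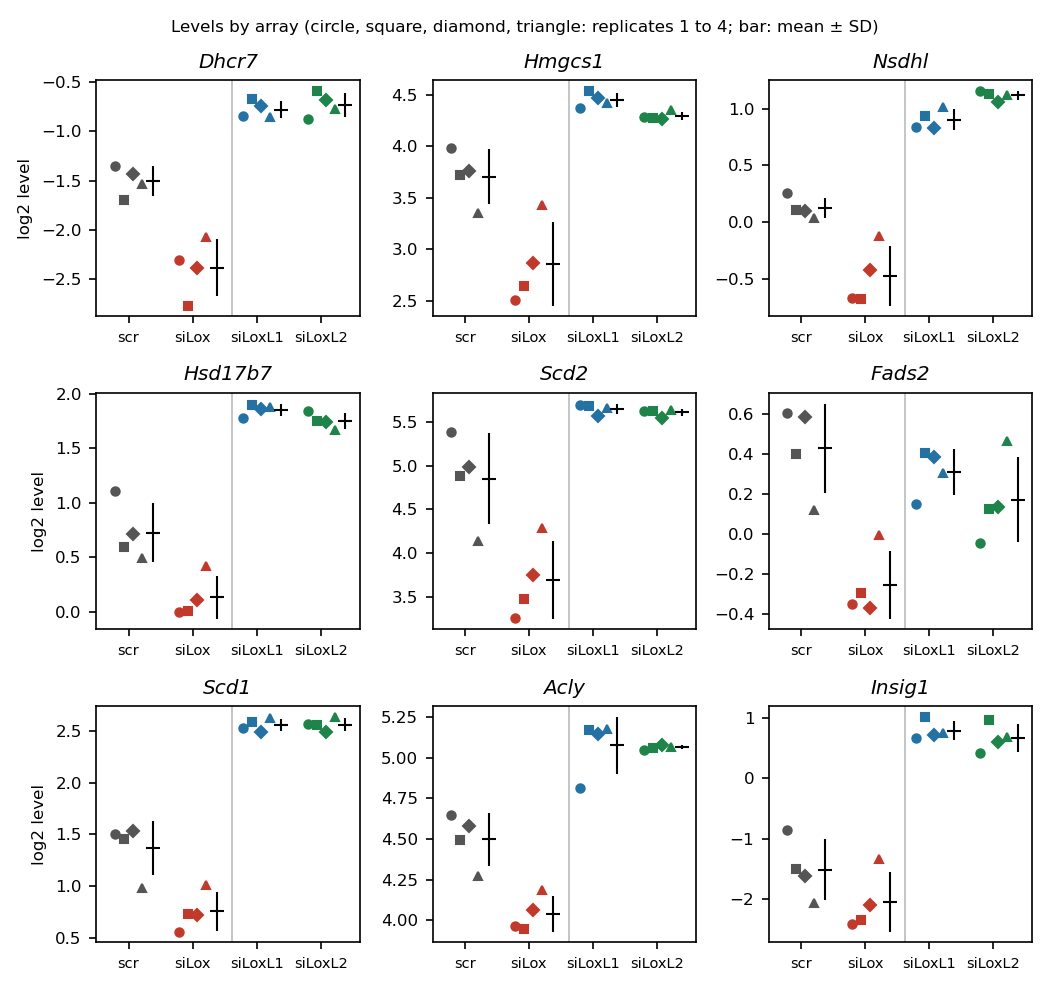
Log2 level of 9 members on each of the 16 arrays (symbols by replicate number, which only names the array), with the mean and SD of each group beside them; the grey line parts the slides. In each of the 9 genes siLox replicate 4 (triangle) is the highest of its group, and Dhcr7, Nsdhl, Hsd17b7, Fads2 and Acly show no overlap between scr and siLox.

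Among the 6 genes of sterol transport and regulation, 1 was lower in siLox (16.7%, near the 13.5% of all genes). Insig2 was at 2.64, 2.47, 2.44 and 2.21 in scr and at 2.15, 2.11, 2.12 and 2.16 in siLox. These do not overlap, and the difference was -0.30 ± 0.09 (adjusted p = 0.0444), the smallest of the 11 and one that passed in 6 of 17 alternatives. Insig1, itself a classic target of SREBP-2, spread widely, from -0.86, -1.51, -1.62 and -2.07 in scr to -2.42, -2.34, -2.09 and -1.34 in siLox. Its difference of -0.53 ± 0.31 did not pass (adjusted p = 0.231), with scr replicate 1 as the highest and siLox replicate 1 as the lowest array. Without both replicates 4 it was -0.96 and passed.

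The genes of the transcription factors and their escort did not pass. Srebf2 was at 0.12, -0.46, -0.31 and -0.43 in scr and at -0.67, -0.63, -0.57 and -0.29 in siLox (-0.27 ± 0.15, adjusted p = 0.204), and a second probe read 0.07. Srebf1 was at -1.89, -2.02, -2.06 and -2.16 in scr and at -2.17, -2.12, -1.89 and -2.06 in siLox, so that the groups lay on top of each other (-0.03 ± 0.09). Scap was at 4.09, 3.89, 4.04 and 3.80 in scr and at 3.76, 3.71, 3.74 and 3.81 in siLox, and only siLox replicate 4 reached into the range of scr (-0.20 ± 0.08, adjusted p = 0.0949). Stard4, a carrier of cholesterol between membranes, read 0.16 ± 0.18.

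In fatty acid synthesis 4 of 8 genes were lower in siLox (50%) and 0 higher, against 13.5% lower and 11.5% higher over all genes. All 8 differences were below 0 (12710 of 22649 over all genes), and their median was -0.41. Scd2, a desaturase that makes monounsaturated fatty acids, was at 5.38, 4.88, 4.99 and 4.14 in scr. In siLox it was at 3.26, 3.48, 3.75 and 4.29, the largest difference of all members (-1.15 ± 0.30, adjusted p = 0.0331). The groups overlapped at replicate 4 only. Its relative Scd1 was at 1.51, 1.45, 1.53 and 0.98 in scr and at 0.56, 0.73, 0.72 and 1.01 in siLox (-0.61 ± 0.15, adjusted p = 0.0260), with the same overlap at replicate 4.

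Fads2, the first desaturase in the synthesis of long polyunsaturated fatty acids, was at 0.60, 0.40, 0.58 and 0.12 in scr. It was at -0.35, -0.29, -0.37 and -0.01 in siLox, with no overlap (-0.68 ± 0.13, adjusted p = 0.0148), and its second probe read -0.63. Like Dhcr7, it passed in 16 of 17 alternatives. Acly, which splits citrate into the acetyl-CoA that feeds both pathways, was at 4.65, 4.50, 4.58 and 4.27 in scr and at 3.96, 3.95, 4.06 and 4.18 in siLox (-0.46 ± 0.10, adjusted p = 0.0185). Its groups did not overlap, and its second probe read -0.56.

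The enzymes that build the fatty acid chain itself did not pass. Fasn, the fatty acid synthase, read -0.14 ± 0.09, Acaca, the carboxylase that supplies it, -0.05 ± 0.07, and Elovl6, the elongase of the finished chain, -0.02 ± 0.10. Another desaturase, Fads1, was at -0.37 ± 0.16 (adjusted p = 0.120). Of 4 Acaca probes, 1 probe near the start of the gene, on chromosome 11 from 84009021 to 84009080, read -0.36 (adjusted p = 0.0400 among probes), whereas the brightest, at the other end of the gene from 84215093 to 84215152, did not differ beyond its error. In 6 of the 32 members the siLox levels all lay below the scr levels (Nsdhl, Hsd17b7, Dhcr7, Insig2, Acly and Fads2). That share was near the 16.9% of all genes.

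The arrays themselves formed a common pattern over the members. Within scr, replicate 1 was the highest of the group in 27 of 32 members and replicate 4 the lowest in 26, against 35.2% and 34.0% of all genes. Within siLox, replicate 4 was the highest in 28 members, against 31.6% of all genes. SiLox replicate 4 lay above scr replicate 4 in 24 of 32 members, a count that was not made over all genes. The mean level of the 18 cholesterol genes was 1.84, 1.65, 1.68 and 1.42 in scr and 1.09, 1.10, 1.26 and 1.54 in siLox. Replicate 4 was also the siLox array with the most Lox left, at 2.04, and the summed linear signal of the 9 fibroblast markers ranged from 551 to 775 in siLox against 835 to 914 in scr. Of these markers 4 were lower in siLox (Col1a2, Pdgfrb, Thy1 and Vim), and 6 had an unadjusted p under 0.05 by limma. All 9 differences were below 0 (12710 of 22649 over all genes), with a median of -0.46. The part of the remaining Lox or of the fibroblast markers in the members' differences was not tested.

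Markers of other cell types moved as well. Of 10 tested leukocyte and macrophage markers 1 was higher in siLox (Marco, by 1.08), with a summed signal of 23.5 to 28.2 in scr and 25.1 to 29.7 in siLox. The median difference of the 10 was 0.42, with 2 below 0 and 5 at an unadjusted p under 0.05 by limma. Of 3 detected epithelial genes Krt8 and Krt19 were higher by 0.27 and 0.77, with a summed signal of 8.50 to 9.69 in scr and 10.5 to 11.6 in siLox. Krt18 went the other way, below 0, and did not pass, though its unadjusted p was under 0.05 by limma. Of 3 mesothelial genes 2 were lower (8.43 to 9.47 and 7.07 to 7.40). None of 5 endothelial genes passed by limma (2 at an unadjusted p under 0.05), at 4.59 to 5.49 in scr and 3.13 to 4.89 in siLox. The part of these markers in the result was not tested.

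Genes around the pathway were counted beside the members. Of 37 related genes 13 were lower (35.1%) and 1 higher (2.7%) in siLox, against 13.5% and 11.5% of all genes. In uptake and export of sterols 4 of 12 were lower and 1 higher, and in fatty acid activation, elongation and supply 6 of 15 were lower. In isoprenoid use 2 of 5 were lower, and in SREBP processing 1 of 5. The largest differences were those of Abca1, the exporter of cholesterol to apolipoproteins (-1.32 ± 0.20), and of the lipoprotein receptors Vldlr (-0.89 ± 0.25) and Lrp1 (-0.70 ± 0.17). Nr1h3, the oxysterol-sensing receptor LXR-alpha, was the one that was higher (0.63 ± 0.18, adjusted p = 0.0399).

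Between siLoxL1 and siLoxL2, which share the other slide, 3 of 32 members passed, 2 higher and 1 lower in siLoxL1. Of all genes tested 6.11% were higher and 2.7% lower, so the share of the members was near the background. Quantile scaling moved the share of lower genes among all calls from 30.7% to 43.9%. The median difference of the members was 0.05, against 0.03 over all genes, and all 32 differences lay between -0.25 and 0.27 with SEs of 0.03 to 0.14. Of cholesterol synthesis 2 of 18 passed, of regulation 1 of 6, and of fatty acid synthesis 0 of 8 by limma, with 2 of these 8 (Elovl6 and Fads1) at an unadjusted p under 0.05.

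Sc5d was at 4.70, 4.73, 4.71 and 4.70 in siLoxL1, against 4.47, 4.42, 4.42 and 4.48 in siLoxL2, a small and tightly measured difference of 0.27 ± 0.04 (adjusted p = 0.00822). Scap, the escort of both SREBPs, was at 4.72, 4.66, 4.64 and 4.69 in siLoxL1, against 4.36, 4.37, 4.49 and 4.42 in siLoxL2 (0.27 ± 0.04, adjusted p = 0.0140). Neither gene overlapped between the groups. Sc5d passed in 16 of 16 alternatives and Scap in 14, but not with normexp background or with the replicate number as a block. The probes lie on chromosome 9, from 42062857 to 42062916 for Sc5d and from 110287280 to 110287339 for Scap.

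Nsdhl was lower in siLoxL1, at 0.84, 0.94, 0.83 and 1.02 against 1.16, 1.13, 1.06 and 1.12 (-0.21 ± 0.05, adjusted p = 0.0469). That call was fragile, since the second Nsdhl probe read 0.22, the mean of both probes was 0.00143, and the gene passed in 5 of 16 alternatives. Another Hsd17b7 probe, on chromosome 1 from 171885632 to 171885691, was higher in siLoxL1 by 0.58 (adjusted p = 0.0185 among probes), while the brightest probe of the gene read 0.10 and did not pass. Insig1, with siLoxL1 levels of 0.67, 1.02, 0.71 and 0.76 and siLoxL2 levels of 0.42, 0.96, 0.60 and 0.69, did not pass (0.12 ± 0.12).

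The other regulators did not pass either. Insig2 was at 2.94, 2.82, 2.88 and 2.99 in siLoxL1, against 3.02, 3.06, 3.02 and 3.00 in siLoxL2 (-0.12 ± 0.05), all siLoxL2 arrays lying above. Srebf1 was at -1.31, -1.25, -1.08 and -1.12 in siLoxL1, against -1.19, -1.13, -0.97 and -1.21 in siLoxL2 (-0.06 ± 0.07). Srebf2 varied more, at 0.77, 1.22, 0.98 and 1.11 in siLoxL1, against 0.68, 1.13, 0.77 and 0.50 in siLoxL2 (0.25 ± 0.14). Of the fatty acid genes Scd2 was at 5.69, 5.68, 5.56 and 5.66 in siLoxL1, against 5.62, 5.63, 5.55 and 5.64 in siLoxL2, a difference of 0.04 ± 0.04. Scd1, Acly and Fads2 read -0.01, 0.01 and 0.14, and the most negative of the fatty acid genes was Fads1 at -0.21 ± 0.05 (adjusted p = 0.0513). Of the 37 related genes 4 were higher in siLoxL1 (10.8%) and 0 lower, against 6.11% and 2.7% of all genes. The 4 were Fbxw7, part of the ligase that degrades nuclear SREBPs (0.29), the receptor Lrp8 (0.25), the elongase Elovl1 (0.23), and Mylip, a ligase that degrades lipoprotein receptors (0.23).

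The largest differences of the members lay between the slides. In siLoxL1 30 of 32 members were higher than in scr and 0 lower, and in siLoxL2 31 of 32 were higher and 0 lower. Of all genes tested 43.2% and 41.4% were higher, and 21.9% and 23.4% lower. In the same 30 and 31 members every array lay above every scr array, as in 39.1% and 37.2% of all genes. The median difference of the members was 1.13 in siLoxL1 and 1.03 in siLoxL2, against 0.19 and 0.17 over all genes. Both comparisons use the same 4 scr arrays, and in both of them slide and siRNA cannot be told apart. Scaling by quantiles moved the median of all genes to 0.08 and 0.07 and that of the members to 1.03 and 0.98. It also raised the share of lower genes among all calls, from 33.6% to 44.5% for siLoxL1 and from 36.1% to 46.1% for siLoxL2. With no filter on dim probes, most calls over all genes were lower (55.6% and 56.9%, medians of all genes -0.09 and -0.10), while 30 and 31 members were still higher and 0 lower.

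Insig1 differed most, by 2.30 ± 0.25 in siLoxL1 and 2.18 ± 0.25 in siLoxL2. The sterol oxidase Msmo1 followed, at 1.83 ± 0.15 and 1.96 ± 0.15. Sc5d was at 1.67 and 1.41, Fdps at 1.56 and 1.49 and Fdft1 at 1.38 and 1.46, and their order differed between the siRNAs. Srebf2 was higher by 1.29 and 1.04 and Srebf1 by 0.84 and 0.91, with every siLoxL1 and siLoxL2 array above every scr array. Of the 11 genes lower in siLox, Dhcr7 was higher on the other slide by 0.72 and 0.77, Hmgcs1 by 0.75 and 0.59, Scd2 by 0.80 and 0.76, and Acly by 0.58 and 0.56. With quantile scaling Scd2 was at 0.53 and 0.54 and did not pass, and Hmgcs1 in siLoxL2 did not pass with normexp background (0.35). All 18 cholesterol genes were positive in both comparisons, where 8273 and 8632 of all 22649 genes were below 0. Acat2 in siLoxL1 was the one among the 18 that did not pass (0.33 ± 0.15, adjusted p = 0.0661).

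Fads2 was the exception. It was at 0.15, 0.40, 0.38 and 0.30 in siLoxL1, against -0.04, 0.13, 0.13 and 0.46 in siLoxL2, within or near the range of scr, and its differences from scr were -0.12 ± 0.13 and -0.26 ± 0.13 (adjusted p = 0.428 and 0.0867). This value depended on the probe: the brightest, on chromosome 19 from 10137760 to 10137819, gave these differences, and the other, from 10163229 to 10163288, was higher than scr by 0.37 and 0.39 (adjusted p = 0.00902 and 0.00736 among probes). The mean of both probes gave 0.13 and 0.07. In siLoxL2 Fads2 passed as lower without siLoxL2 replicate 4, without scr replicate 4 and with normexp background. Probes also disagreed in Insig2, whose second probe read -0.08 and -0.03 where the brightest read 0.47 and 0.59, and in Acaca, whose probe near the start of the gene read -0.19 and -0.12 where the brightest read 0.78 and 0.73.

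**Figure D4:**
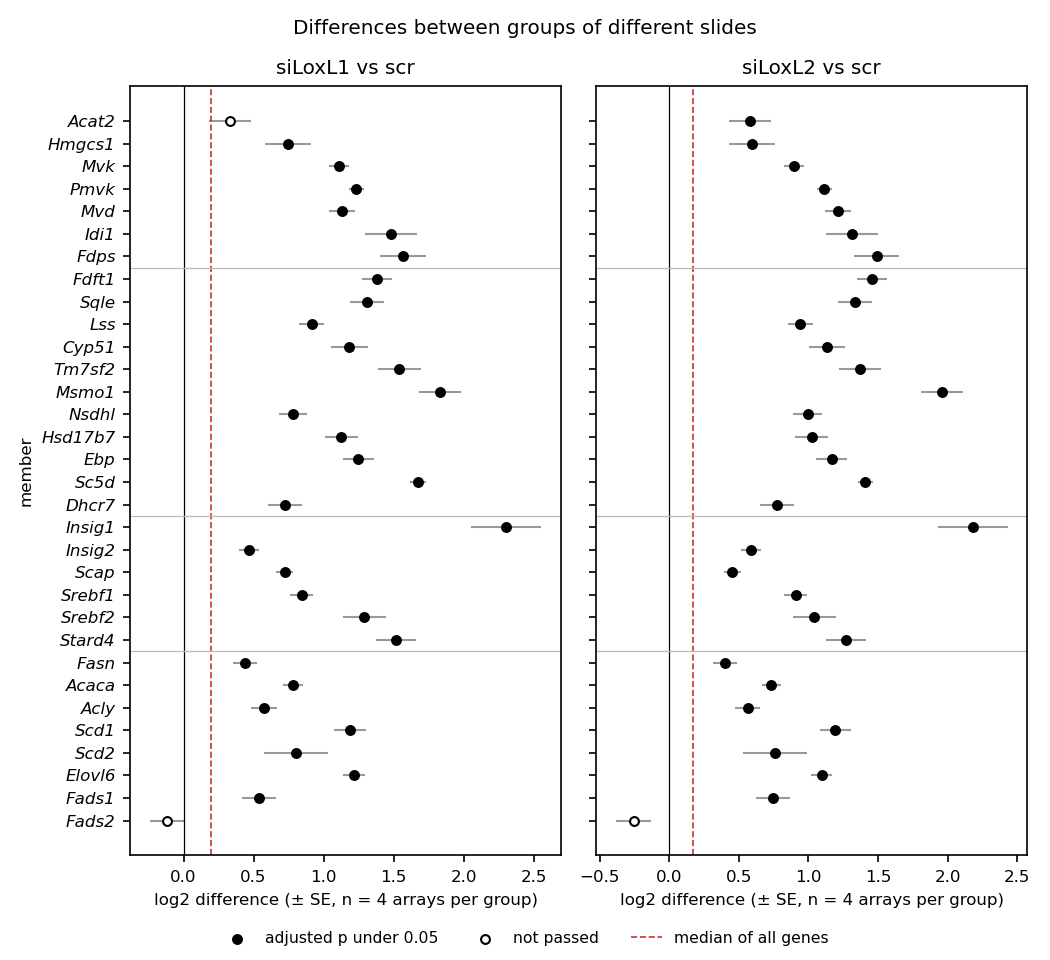
Log2 difference of each member from scr (points, with SE, n = 4 arrays per group) for siLoxL1 on the left and siLoxL2 on the right, with the same 4 scr arrays in both; filled points passed an adjusted p of 0.05. All members but Fads2 lie above the dashed median of all genes (0.19 and 0.17), with Insig1 farthest, at 2.30 and 2.18.

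Other genes showed differences between the slides that were larger than those of the members. Krt8 and Krt18, keratins of simple epithelia, were lower on slide 2 than in scr (-4.24 and -3.29 in siLoxL1, -4.36 and -3.41 in siLoxL2), and Krt19 was higher by 2.33 and 2.39. The summed signal of the fibroblast markers was 790 to 827 in siLoxL1 and 749 to 803 in siLoxL2, below the 835 to 914 of scr. By gene, 5 of the 9 were higher and 3 lower in siLoxL1, and 4 higher and 3 lower in siLoxL2. Their mean log2 level, 4.97 to 5.06 and 4.95 to 5.03, lay within the 4.77 to 5.20 of scr. The summed signal of the leukocyte markers was 33.3 to 35.9 and 36.6 to 39.7, above the 23.5 to 28.2 of scr. Of the 10 tested, 4 were higher and 2 lower in siLoxL1, and 4 higher and 1 lower in siLoxL2. The 3 mesothelial genes summed to 4.57 to 6.06 and 4.76 to 5.11, below the 8.43 to 9.47 of scr. In both groups 2 of the 3 were lower and 1 higher. The 5 endothelial genes summed to 5.51 to 5.84 and 5.54 to 6.08, against 4.59 to 5.49 in scr. By gene, however, 3 of the 5 were lower and 1 higher in both groups. The part of these in the members' differences was not tested. The members also varied less among arrays of slide 2, with a median SD of 0.0743 in siLoxL1 and 0.0728 in siLoxL2 against 0.197 in scr and 0.182 in siLox, where all genes had 0.0928, 0.0899, 0.167 and 0.132.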

How the data were processed

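Total RNA was labelled with Cy3 and hybridised to 16 one-colour arrays. Per the file headers, the authors' scanner files hold an intensity for each spot with the background already subtracted, made by Agilent Feature Extraction, whose version 10.7.3.1 the submitters' processing notes also give. The deposited files also hold other columns, flags of 0 or 1 per spot. The authors' value table holds log2 values that its columns show to be quantile normalized (sorted columns differ by at most 0.000965, r = 0.997 to 0.999 with the log2 scanner values). It was used as an alternative.

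Outlier spots were dropped, repeat spots averaged, and the 75th percentile over non-control probes subtracted from each array's log2 values (8.67 to 9.03 on slide 1, 9.74 to 9.90 on slide 2). Probes were kept that exceeded background clearly in all 4 arrays of any group (58.3% of 55681), and a gene was read by its brightest probe. Probe positions are in mm9. RefSeq accessions matched 28026 probes and updated 1651 symbols.

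Genes were tested with limma 3.58.1 in R 4.3.3, adjusted by Benjamini-Hochberg over 22649 genes. The comparisons siLox vs scr and siLoxL1 vs siLoxL2 used the 8 arrays of their slide, because the spread differed between slides, and those across slides used all 16 arrays. Data were simulated for 22649 genes, of which 200 were changed. Differences of 1 (log2) were recovered in 67.2% for siLox vs scr and in 91.0% for siLoxL1 vs siLoxL2. These rates hold for that setting and can differ where more genes change. Array by array values are given for the up to 4 members per pathway group with the largest differences that passed within a slide, and for Insig1, Srebf1, Srebf2 and Scap. Up to 3 related genes are named per direction by the same measure, and Mylip beyond these was named after its values were seen. Features singled out for disagreeing probes were likewise chosen after their values were seen. The members and lists were chosen with earlier results of these data known. Comparisons of siLox with siLoxL1 or siLoxL2 were not made. Same-numbered arrays of siLox and scr did not deviate together (correlations -0.19 to -0.0019), and those of siLoxL1 and siLoxL2 did in 3 of 4 pairs only (0.04 to 0.22, with 0.1 required of every pair), so the numbers were not taken as pairs.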

Additional observations from a re-analysis of the deposited data

Results flagged for a closer look

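Over the 32 members in 4 groups, 128 sets of 4 arrays were checked for an array far from the others by Dixon's test at the 95% level, which chance alone passes in about 1 set in 20. There were 4 such sets. Scd1 in scr replicate 4 was at 0.98, below the 1.45 to 1.53 of the other scr arrays. Pmvk in scr replicate 4 was at 2.84, below 2.96 to 2.99. Acaca in siLoxL1 replicate 3 was at 3.96, below 4.18 to 4.21, and Acly in siLoxL1 replicate 1 was at 4.81, below 5.14 to 5.17.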

How the results depend on the processing

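In siLox vs scr, the count of 6 cholesterol genes became 10 with normexp background and quantile scaling, 2 with no filter on dim probes (where 34731 genes were tested), 11 with all 16 arrays in 1 fit, and 12 with both replicates 4 left out. The count of 1 regulatory gene became 0 in the value table, with quantile scaling and with no filter, 2 with 16 arrays, and 3 without both replicates 4. The fit of 16 arrays called 9747 genes in all, against 5656. In simulated data with 200 changed genes, 41.5% of its calls were false, against 7.52%. These shares do not carry over to the 9747 and 5656 calls, which are far more than the genes changed in the simulation. Leaving out 1 array at a time gave 1 to 10 cholesterol genes, 0 to 2 regulatory genes and 1 to 5 of fatty acid synthesis.

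In siLoxL1 vs siLoxL2, the count of 2 cholesterol genes became 1 with no filter and with 16 arrays, and Nsdhl reversed to 0.00143 with the mean of its probes. The count of 1 regulatory gene became 0 with normexp and 2 when probes had to be above background on all 16 arrays, and the 0 of fatty acid synthesis became 1 with the value table, normexp or quantile scaling and 2 with that stricter filter. Without 1 array, 1 to 2 cholesterol, 1 regulatory and 0 fatty acid genes passed. The cause of these changes was not tested. Between the slides, 30 to 31 members in siLoxL1 and 31 to 32 in siLoxL2 passed without 1 array, and 29 to 31 under every other alternative run.

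With the replicate number as a block, 0 cholesterol, 0 regulatory and 0 fatty acid members passed in siLox vs scr (3 genes in all, against 5656), and 1, 0 and 0 in siLoxL1 vs siLoxL2 (853 genes, against 1995). In the latter, replicates 1 to 3 correlated best with their own number (0.12 to 0.22) and replicate 4 did not stand out (0.04 with its own number and with replicate 1), as a hint from the data and not from the design. The block left the counts between the slides at 30 and 31. Precision is limited by 4 arrays per group.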
